A study of Mus musculus and Rattus norvegicus with 24 samples.

Results

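The genes Tpm1, Myoz2, Actn2, Ldb3, Tcap, Csrp3, Mybpc3, Des and Adprhl1 encode tropomyosin, proteins of the Z-disc and close partners of both in heart muscle. They were chosen by name with earlier results of these data known, so they are not a list picked independently of the data. All 9 were found among the 9595 genes of the count table. Their RNA was counted in 24 single cells in 3 groups of 8. Transplanted cells were cardiomyocytes made from mouse embryonic stem cells and recovered after 30 days in the heart of a neonatal rat. Adult cells were wild-type (WT) ventricular cardiomyocytes of adult rats. Cultured cells came from the stem cell line used for transplantation and stayed in a dish for 30 days. Both stem cell-derived groups carry Isl1-Cre, Rosa-RFP and aMHC-GFP: Isl1 is a gene of heart progenitors, RFP follows Cre activity, and the alpha myosin heavy chain promoter drives GFP in cardiomyocytes. The labels name no animal, culture or clone, so each group stood as 1 sample of 8 cells, and groups were compared without a test.

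In striated muscle, actin filaments of neighbouring sarcomeres meet at the Z-disc with opposite polarity, and there alpha-actinin cross-links them and titin is fastened. Tropomyosin lies along each thin filament and, with troponin, sets when myosin may bind. Around this lattice, LIM and PDZ domain proteins link the Z-disc to signalling, and desmin filaments tie neighbouring Z-discs together. The 9 genes do not all sit at the Z-disc: Tpm1 encodes the thin filament tropomyosin, Mybpc3 a myosin-binding protein of the thick filament, and Adprhl1 a relative of the ADP-ribosylhydrolases that frog (Xenopus) hearts need for myofibril assembly.

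Total counts ran from 88796 to 344224 in transplanted, from 108546 to 223744 in adult and from 16099 to 60789 in cultured cells. A level in CPM is a group's summed count per 1000000 summed counts, with its exact Poisson interval in brackets. Ratios are between these sums, with exact conditional binomial intervals. All intervals are at 95%, cover counting error only and treat reads as independent. Reads made by PCR are not independent molecules, so the intervals are too narrow even for counting error. A list of 8 cardiomyocyte markers took 10.9% of counts in transplanted, 9.83% in adult and 5.20% in cultured cells, and 0.00419 to 16.8% in single cultured cells. Cultured cells G and H stood at the low end of that range, at 0.0883% and 0.00419%, and had no count of any of the 9 genes. Of the 8 cardiomyocyte markers, Myl7 was at 0 in transplanted and adult cells, while all 8 had counts in cultured cells. Fibroblast markers (6 of 8 listed) took 0% of counts in transplanted, 7.87e-05% in adult and 0.0277% in cultured cells. Smooth muscle and pericyte markers (7 of 8 listed), whose cells also use Tpm1 and Des, took 0.00108% in transplanted, 0.0526% in adult and 0.0728% in cultured cells, with Cnn1, Pdgfrb and Cspg4 at 0 in transplanted cells, those 3 with Tagln and Smtn at 0 in adult cells, and Tagln at 0 in cultured cells. In single cells those smooth muscle shares ran from 0 to 0.00901% in transplanted, 0 to 0.164% in adult and 0 to 0.177% in cultured cells. Skeletal muscle markers (4 of 9 listed) took 0.527% in transplanted, 0.640% in adult and 0% in cultured cells. Their range over single cells was 0.114 to 1.05% in transplanted and 0.184 to 0.858% in adult cells. Tnnt3 was at 0 in all 3 groups, and Acta1, Tnni2 and Ckm, of which heart muscle also uses Acta1 and Ckm, were at 0 in cultured cells. The part of other cell types in the results was not tested.

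The 9 genes together took almost the same share of RNA in transplanted and adult cells and a far smaller one in cultured cells. The share was 4.90% (4.86 to 4.94) in transplanted, 4.86% (4.82 to 4.90) in adult and 0.168% (0.151 to 0.186) in cultured cells, by exact Clopper-Pearson intervals. In single cells it ran from 3.45 to 6.68%, with a median of 5.11%, in transplanted cells. It ran from 4.01 to 6.81%, with a median of 4.71%, in adult cells, and from 0 to 0.374%, with a median of 0.176%, in cultured cells. Every transplanted and every adult cell was thus above every cultured cell, while the transplanted and adult ranges overlapped over most of their length. Tpm1 alone made up 74.5% of the counts of the 9 genes in transplanted, 74.6% in adult and 54.0% in cultured cells. Without Tpm1 the other 8 genes took 1.25% (1.23 to 1.27) of counts in transplanted, 1.24% (1.22 to 1.26) in adult and 0.0771% (0.0656 to 0.0901) in cultured cells.

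**Figure D1:**
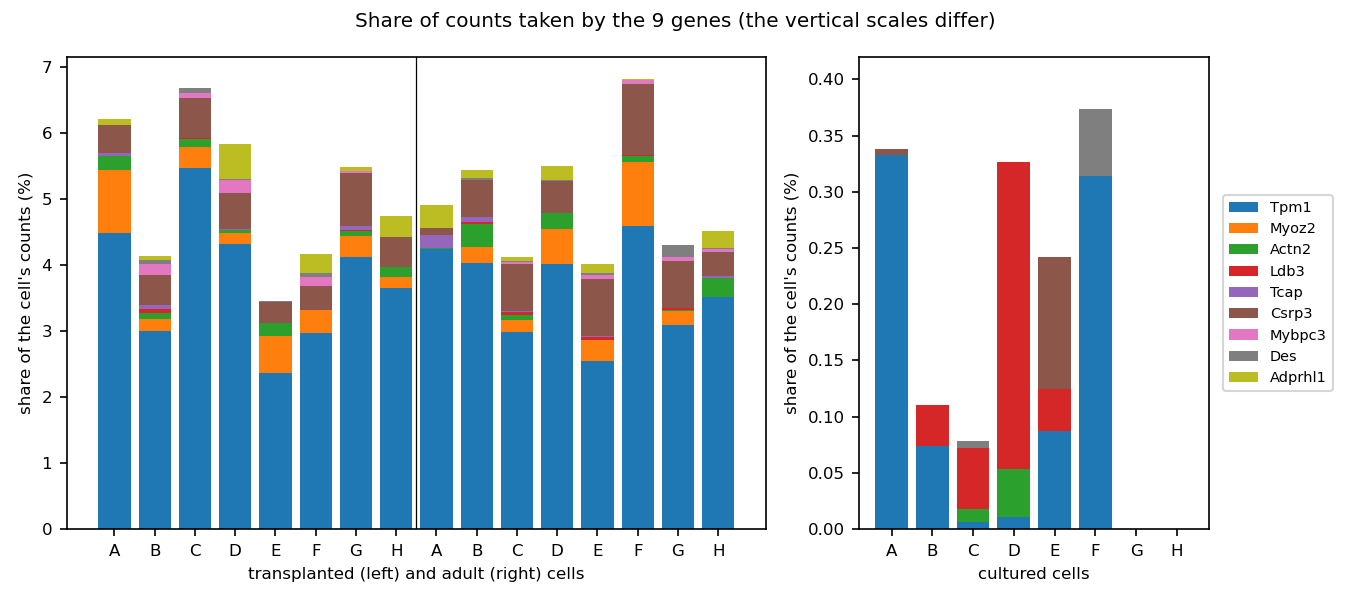
Bars give the share of each cell's counts (percent) taken by the 9 genes, stacked by gene, for transplanted and adult cells on the left and cultured cells on the right, with vertical scales that differ. Transplanted and adult cells reach 3.45 to 6.81% and are mostly Tpm1, while cultured cells stay at or below 0.374%, with no bar in cells G and H.

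Transplanted and cultured cells came from 1 stem cell line and differed in where they spent 30 days, in a heart or in a dish. Their libraries differed as well. The median cell had 754 genes detected in the transplanted and 1494 in the cultured group, although cultured totals were smaller. Medians of the ribosomal RNA Rn45s were 1.20 and 7.02% of counts, and those of the count-weighted median exon length 2054 and 5758 bp. The part of these library differences in the ratios was not tested. Of the 9 genes, 8 stood 2-fold or more above their cultured level in transplanted cells and 1, Ldb3, stood 2-fold or more below it. Among all 4958 genes with at least 10 counts over both groups, 22.5% were this much higher and 64.0% this much lower. These genes were not matched to the 9 for counts. The 3 counts used as a floor for genes at 0 equal 14.6 CPM in cultured and 2.30 CPM in transplanted cells. A scarce gene is thus more easily called lower than higher, and the same limit holds for adult against cultured cells. At 4-fold, 7 of the 9 and 15.8% of all measured genes were higher. The median log2 ratio of the 9 genes was 5.57 with a pseudocount of 1 CPM, and 5.33 with the 4 genes that had no cultured count set to the floor of 3 counts. That of all measured genes was -5.63. TMM scaling adds 0.92 to every log2 ratio against cultured cells in this comparison and median-of-ratios scaling 0.22, and neither turned the direction of any of the 9 genes.

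Tpm1 was the most abundant of the 9 genes in all 3 groups, also per kilobase of exon. Single transplanted cells had 23719 to 54788.5 CPM, with a median of 38916 CPM, against 0 to 3332 CPM, with a median of 423.9 CPM, in single cultured cells. The groups did not overlap. In the sums, Tpm1 stood at 36509 CPM (36181 to 36838) and 907 CPM (782 to 1047), a ratio of 40.3 (34.9 to 46.7). Leaving out any 1 cell kept that ratio between 35.4 and 56.2. Cultured cells A to H had 66, 45, 1, 3, 14, 58, 0 and 0 counts of Tpm1, so 2 cells held most of it and 2 had none.

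Myoz2 and Csrp3 also had all transplanted cells above all cultured cells. Myoz2, encoding calsarcin-1, which ties calcineurin to alpha-actinin, had 1697 to 9587 CPM in single transplanted cells, with a median of 3121 CPM, and no count in any cultured cell. Over the group it was at least 245-fold higher. At the transplanted level, cultured cells would have held 734 counts of Myoz2 in all and 57.3 to 216 per cell. Csrp3, the muscle LIM protein, had 3126 to 8018 CPM in single transplanted cells, with a median of 4536 CPM, against counts in 2 cultured cells, 50.5 CPM in cell A and 1180 CPM in cell E. Its ratio was 48.0 (31.1 to 78.7), and 886 without cultured cell E, which held 19 of 20 cultured counts. Tpm1, Myoz2 and Csrp3 were the 3 of 9 genes with every transplanted cell above every cultured cell, as were 1.33% of all measured genes.

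Actn2, the sarcomeric alpha-actinin, was present in 7 of 8 transplanted cells, at 0 to 2023 CPM with a median of 1116 CPM. Of the cultured cells, only C and D had counts of it, 2 and 12. Its ratio was 17.8 (10.6 to 32.6), and 108 without cultured cell D. The groups overlapped because transplanted cell F had no count among its 151356. Adprhl1 was as uneven within the transplanted cells, from 0 in cell E to 5229 CPM in cell D with a median of 721 CPM. It had no cultured count and was at least 136-fold higher. The transplanted level would have given 407 cultured counts.

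Mybpc3, Tcap and Des were scarcer. Mybpc3 had 0 to 1943 CPM in single transplanted cells, with a median of 617 CPM, counts in 7 of 8 of them and no cultured count, so it was at least 45.0-fold higher. Tcap encodes telethonin, which caps the end of titin. It had 493, 668, 0, 179, 0, 0, 489 and 0 CPM in transplanted cells A to H and no cultured count. Tcap was at least 12.1-fold higher over the group, but its transplanted level would give only 2.84 to 10.7 counts in a single cultured cell. Des, the desmin gene, had 0 to 652 CPM in transplanted cells, with a median of 78.6 CPM, and counts in 6 of 8 of them. In cultured cells it had 1 count in cell C and 11 in cell F. The ratio of Des was 3.36 (1.89 to 6.59), and 36.7 without cultured cell F.

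Ldb3 went the other way. It encodes Cypher, a PDZ-LIM protein that binds alpha-actinin. Transplanted cells A to H had 0, 69, 12, 0, 3, 0, 23 and 0 counts of Ldb3, against 0, 22, 9, 76, 6, 0, 0 and 0 in cultured cells A to H. The groups overlapped, and each had 4 cells with counts. Over the sums Ldb3 stood at 82.1 CPM (67.3 to 99.2) and 548 CPM (452 to 659), a ratio of 0.150 (0.114 to 0.197), that is 6.67-fold lower (5.08 to 8.78). It was 0.234 with equal weight for each cell and 0.283 with TMM scaling. The direction held without any 1 cell, at 17.0-fold lower without transplanted cell B and 2.53-fold lower without cultured cell D. All 113 cultured counts of Ldb3 lay in cells B to E. Those 4 libraries held 2.51 to 5.48% of Rpph1, the RNA of RNase P, against 0.0202 to 0.0574% in cultured cells A, F, G and H and 0% in transplanted cells. Their count-weighted median exon length was 6584 to 6983 bp, against 3749 to 4933 bp in the other cultured cells and 1950 to 2304 bp in transplanted cells. The exons of Ldb3 sum to 6105 bp and those of Tpm1 to 6485 bp, while cultured cells A and F held 66 and 58 of the 187 cultured counts of Tpm1. Cells B to E were also the 4 cultured cells with the largest share of cardiomyocyte markers, 4.64, 16.8, 11.5 and 8.29% in cells B, C, D and E, against 2.35, 0.428, 0.0883 and 0.00419% in cells A, F, G and H. Thus most cultured counts of Tpm1, unlike those of Ldb3, lay outside cells B to E, in cells with lower marker shares. These were cell A at 2.35% and cell F at 0.428%. The part of these differences between cultured cells in the Ldb3 result was not tested.

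**Figure D2:**
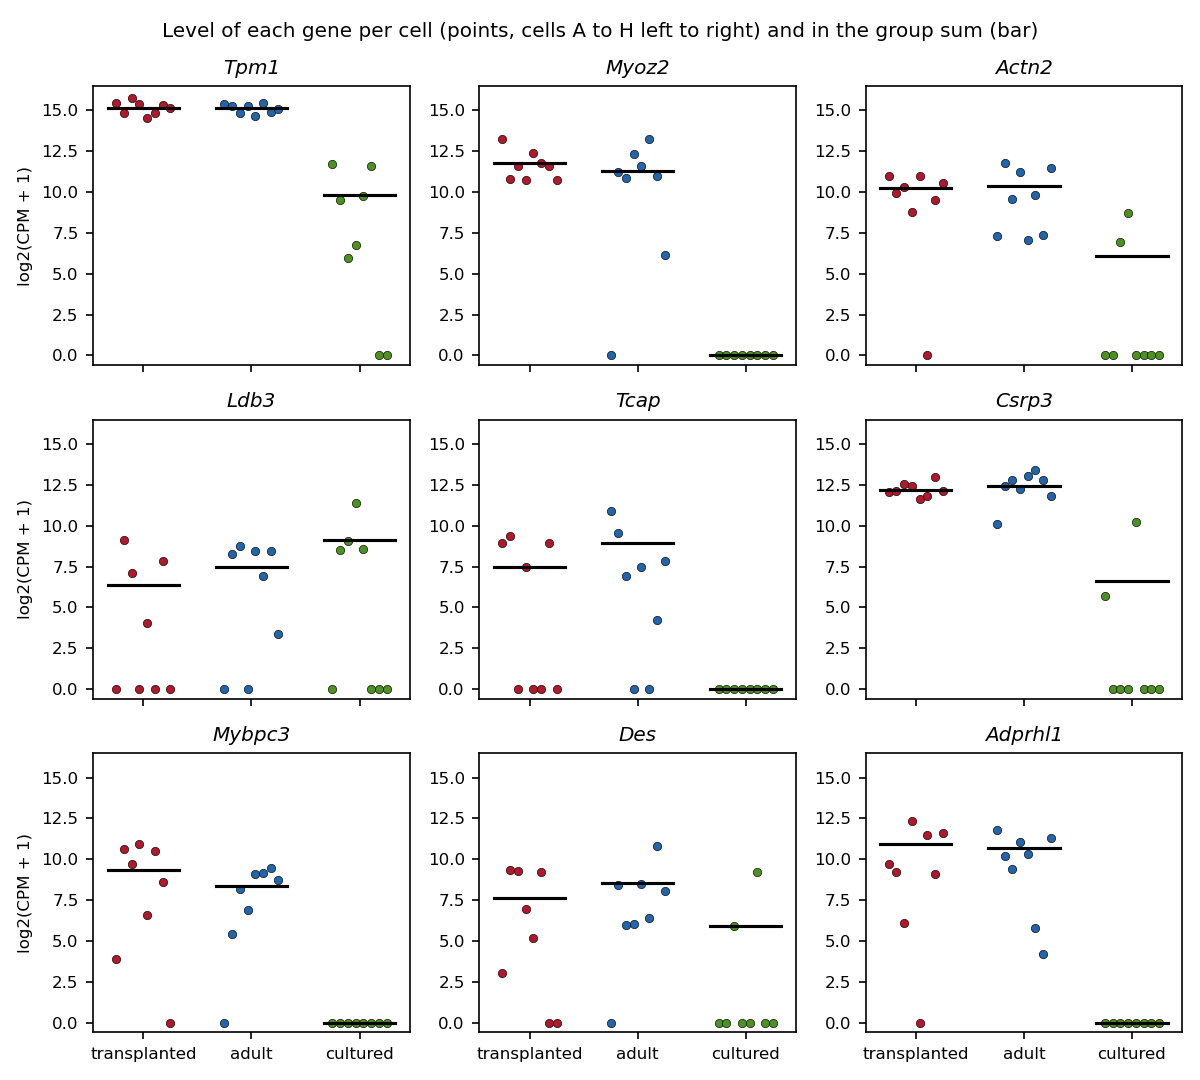
Points give log2(CPM + 1) of each gene in each cell, in order A to H within each group of 8, and bars give the level of the group sum. Tpm1, Myoz2 and Csrp3 show no overlap between transplanted and cultured cells, Myoz2, Tcap, Mybpc3 and Adprhl1 lie at 0 in all 8 cultured cells, and Ldb3 is highest in cultured cell D.

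Adult rat cells were set against the same cultured cells, so the cultured values are shared with the comparison above. Again 8 of the 9 genes were 2-fold or more higher, beside 23.0% of the 5132 measured genes, and Ldb3 was 2-fold or more lower, beside 62.1%. At 4-fold, 8 of 9 were higher, against 15.8% of all. The median log2 ratio was 5.82, or 5.05 with genes at 0 set to the floor, and -3.85 over all measured genes. Tpm1 ran from 25541 to 45971 CPM in single adult cells, with a median of 37633 CPM, all above the 3332 CPM of the highest cultured cell, and its ratio was 39.9 (34.6 to 46.4). Tpm1 and Adprhl1 were the 2 of 9 genes with every adult cell above every cultured cell, as were 1.27% of all measured genes. Adprhl1 ran from 17.5 to 3531 CPM, with a median of 1246 CPM, and was at least 112-fold higher.

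Among the Z-disc proteins, Myoz2 was at least 172-fold higher in the adult sum, although adult cell A had no count of it among 223744. Csrp3 had 1082 to 10797 CPM in adult cells, with a median of 6322 CPM. Its ratio was 57.1 (36.9 to 93.5), or 1052 without cultured cell E, whose 1180 CPM lay above the 1082 CPM of adult cell A. The ratio of Actn2 was 19.5 (11.6 to 35.8), or 118 without cultured cell D. Mybpc3 was at least 22.3-fold higher. Tcap was at least 33.2-fold higher, or at least 11.9-fold higher without adult cell A, which held 432 of the 614 adult counts. Des had a ratio of 6.54 (3.71 to 12.7), which became 2.73 without adult cell G and 71.4 without cultured cell F. Ldb3 was 3.11-fold lower (2.46 to 3.92), but 1.18-fold lower without cultured cell D, so its 2-fold call rested on that cell. With TMM scaling its ratio was 0.609, also inside 2-fold.

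The third comparison set transplanted against adult cells, a mouse stem cell derivative against a rat cell of the mature heart. The abundant genes stood close to each other, and the 3 that passed 2-fold were scarce ones. Tpm1 had 36509 CPM (36181 to 36838) in transplanted and 36226.5 CPM (35896 to 36559) in adult cells, a ratio of 1.01 (0.995 to 1.02). The interval of Tpm1 held 1, so a difference was not detectable beyond counting error. Ratios were 1.42 (1.36 to 1.48) for Myoz2, 1.21 (1.14 to 1.29) for Adprhl1, 0.911 (0.850 to 0.976) for Actn2 and 0.842 (0.813 to 0.871) for Csrp3. These 4 intervals excluded 1, but cells of each group differed from each other by far more, as with Myoz2 from 1697 to 9587 CPM in transplanted and from 0 to 9627 CPM in adult cells. Of the 9 genes, 6 lay within 2-fold, against 20.9% of the 3501 measured genes, or 48.3% of the 838 genes with at least the 331 counts of Ldb3, the member with the fewest.

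Mybpc3 was the 1 of 9 genes at least 2-fold higher in transplanted cells, beside 34.8% of all measured genes. It had 655 CPM (612 to 700) in transplanted and 325 CPM (294 to 358) in adult cells, a ratio of 2.02 (1.79 to 2.27). This call was at the edge of the rule, since leaving out any of 8 single cells took the ratio below 2, to 1.47 without transplanted cell D. At 4-fold none of the 9 genes was higher, against 27.9% of all. Tcap and Ldb3 were the 2 of 9 at least 2-fold lower, beside 44.3% of all. Tcap had 176.5 CPM (154.5 to 200.9) in transplanted and 483 CPM (445 to 523) in adult cells, a ratio of 0.366 (0.313 to 0.426). Without adult cell A its ratio was 1.02, so the difference rested on that cell. With equal weight for each cell the ratio was 0.568, inside 2-fold. Ldb3 was 2.15-fold lower (1.70 to 2.73) in transplanted than in adult cells, 5.46-fold lower without transplanted cell B and 1.58-fold lower without transplanted cell H. Its 2-fold call was lost without any of 9 single cells and with equal weight for each cell, at a ratio of 0.594. Des lay just inside 2-fold, with a ratio of 0.514 (0.440 to 0.600), stood 1.23-fold higher in transplanted cells without adult cell G, and was 2.67-fold lower without transplanted cell F. The median log2 ratio of the 9 genes was -0.14, and that of all measured genes -0.37. The submitters' processing notes name only the mouse build mm10 for the rat cells too, and how that moved rat counts was not tested.

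**Figure D3:**
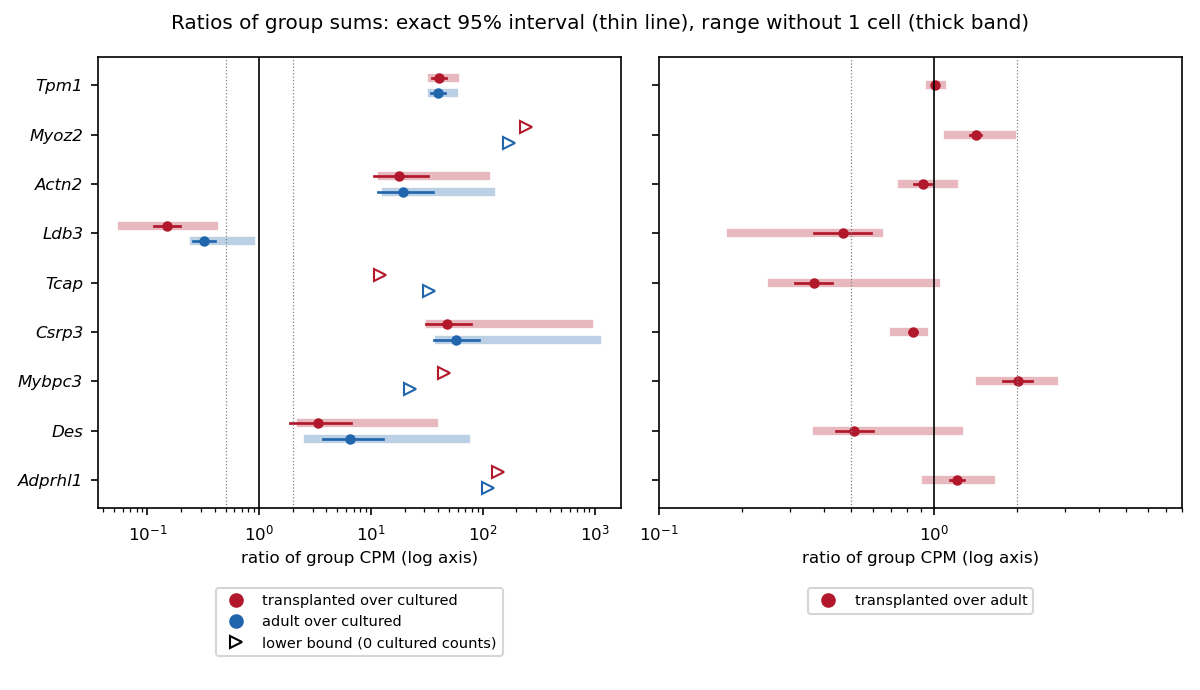
Ratios of group CPM on a log axis, with transplanted over cultured and adult over cultured cells on the left and transplanted over adult cells on the right. Thin lines are exact 95% intervals, thick bands the range without 1 cell, open triangles lower bounds against 0 cultured counts, and dotted lines mark 2-fold either way. Ldb3 alone lies left of 1 on the left. On the right Tpm1 sits at 1.01, and the bands of Tpm1, Actn2, Tcap, Des and Adprhl1 cross 1.

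Ranked by level per kilobase of exon, the order in transplanted cells was Tpm1 at 5630 CPM per kb, Csrp3 at 1745, Myoz2 at 1040, Adprhl1 at 336.8, Actn2 at 318, Tcap at 186, Mybpc3 at 157, Des at 52.1 and Ldb3 at 13.5 CPM per kb. In adult cells it was Tpm1 at 5586 CPM per kb, Csrp3 at 2073, Myoz2 at 733, Tcap at 509, Actn2 at 349, Adprhl1 at 278, Des at 101, Mybpc3 at 78.0 and Ldb3 at 28.9 CPM per kb. In both orders the first 3 places were the same and Ldb3 was last. Without any 1 cell of either group, Tpm1 and Csrp3 stayed first and second and Ldb3 last, but middle places moved. Tcap in adult cells came to 183 CPM per kb without adult cell A, below Actn2 and Adprhl1, and stood above Myoz2 without adult cell F. Neighbours in these orders overlapped in the range of single cells, except Tpm1 and Csrp3 in transplanted cells, where the lowest Tpm1 cell had 3658 and the highest Csrp3 cell 3002 CPM per kb. In cultured cells Ldb3 came second, at 89.8 CPM per kb, after Tpm1 at 140 CPM per kb. Without cultured cell D it came to 34.0 CPM per kb, below Csrp3. Csrp3 at 36.3, Actn2 at 17.9 and Des at 15.5 CPM per kb followed there, and 4 genes were at 0.

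Single cells of a group held different subsets of the 9 genes. Transplanted cells A to H had counts of 8, 9, 8, 8, 7, 6, 8 and 5 of them and adult cells of 5, 9, 9, 7, 9, 8, 9 and 9. Transplanted cell H had the most counts of all 24 cells, 344224, and yet none of Ldb3, Tcap, Mybpc3 or Des. Adult cell A had the most counts of the adult cells and none of Myoz2, Ldb3, Mybpc3 or Des, while it held the highest Tcap level, 1931 CPM. Cultured cells A to H had counts of 2, 2, 4, 3, 3, 2, 0 and 0 of the 9 genes. With every cell thinned to 16099 counts, the median number of the 9 genes with a count was 6.5 in transplanted (5 to 9), 7.5 in adult (5 to 9) and 2 in cultured cells (0 to 4). Before thinning those medians were 8, 9 and 2.

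Cells of a group differed more in some of the 9 genes than in others. Tpm1 was the steadiest, with the highest cell 2.31 times the lowest in transplanted and 1.80 times in adult cells. The highest cell had 2.56 times the Csrp3 level of the lowest in transplanted and 9.98 times in adult cells, and 202 times the Adprhl1 level in adult cells. As deviations from the group mean of log2(CPM + 1) over the 16 transplanted and adult cells, Mybpc3 and Des had a Pearson r of 0.778, with Spearman's rho of 0.731 among 8 transplanted and 0.643 among 8 adult cells. Both genes were at 0 in transplanted cell H and in adult cell A. Myoz2 and Csrp3 had an r of 0.826 but a rho of -0.476 in transplanted and 0.667 in adult cells, so they did not move alike in both groups. These were the highest r among all pairs of the 9 genes. Next came Ldb3 with Csrp3, at an r of 0.605 and a rho of 0.469 in transplanted and 0.695 in adult cells. Csrp3 and Mybpc3 had an r of 0.574 and a rho of 0.31 and 0.667. Further pairs ranged from moderate values of r to values below 0. The lowest r was -0.457, for Ldb3 and Adprhl1, with a rho of -0.685 in transplanted and -0.647 in adult cells. These values describe cells that share group and library preparation, and they carry no p.

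By the mean of the 9 genes on the same scale, the most alike of 232 genes with at least 50 CPM in both sums and counts in at least 12 of 16 cells included Cd36, a fatty acid transporter, with an r of 0.858, and Ankrd1, Uqcc2 and Minos1, with an r of 0.705 to 0.665. Cd36 stood at 990 CPM in transplanted, 918 CPM in adult and 0 CPM in cultured cells. Ankrd1, a cardiac ankyrin repeat protein of the sarcomere, stood at 239 CPM, 659 CPM and 0 CPM in these groups.

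Counts of relatives of the 9 genes show which gene of a family the RNA was counted for, and not which splice form. Besides the tropomyosins, 14 paralogs were looked up, and 8 of them were in the count table. In transplanted and adult cells Tpm1 was the only tropomyosin gene with any count, at 47566 and 46063 counts. In cultured cells it made up 187 of 236 tropomyosin counts, 79.2% (73.5 to 84.2), or 62.0% per exon length. The other 49 counts belonged to Tpm2, Tpm3 and Tpm4, which many non-muscle and other muscle cells use. Tpm2 had 31 counts in cultured cells A, B and C, 150 CPM (102 to 213), and was at least 65.3-fold lower in transplanted and at least 63.7-fold lower in adult cells (at least 28.0-fold and 27.3-fold lower without cultured cell A). Tpm4 had 14 counts in cultured cells F and G, 67.9 CPM (37.1 to 114), and was at least 29.5-fold lower in transplanted and at least 28.8-fold lower in adult cells (at least 9.26-fold and 9.03-fold lower without cultured cell F). Tpm3 had only 4 cultured counts. Cultured cell G, which had no count of any of the 9 genes, held 4 counts of Tpm4.

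In 3 further families the muscle form was likewise a smaller share in cultured cells, on few counts. Actn2 made up 99.94% (99.65 to 100) of the counts of Actn2, Actn1 and Actn4 in transplanted cells, 98.8% (98.1 to 99.2) in adult cells and 36.8% (21.8 to 54.0) in cultured cells, the last being 7.69% without cultured cell D. Actn1 and Actn4 encode the non-muscle alpha-actinins. All 21 adult counts of Actn4 came from cell E. Csrp3 made up all of the 6072 and 7039 counts of Csrp3, Csrp1 and Csrp2 in transplanted and adult cells and 27.8% (17.9 to 39.6) in cultured cells, or 3.13% without cultured cell E. Csrp1, a LIM protein of smooth muscle, had 16 and 21 counts in cultured cells D and E. Des made up 99.61% (97.84 to 99.99) of the counts of Des and Vim in transplanted, 100% (99.2 to 100) in adult and 38.7% (21.9 to 57.8) in cultured cells, or 16.7% without cultured cell F. Vim, the vimentin of mesenchymal cells, had 5 counts in cultured cell A and 14 in cell F. Cultured cell F, at 0.428% of cardiomyocyte markers, held 14 of 19 cultured counts of Vim and 10 of 14 of Tpm4. Cell H, at 0.00419%, held all 15 of Csrp2. Csrp1 lay in cells D and E, at 11.5 and 8.29%, and Tpm2 in cells A, B and C, at 2.35, 4.64 and 16.8%. Actn1 lay in cells B, C, E and F. The part of these marker differences in the family shares was not tested. Reads that paralogs share may be placed on either gene.

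**Figure D4:**
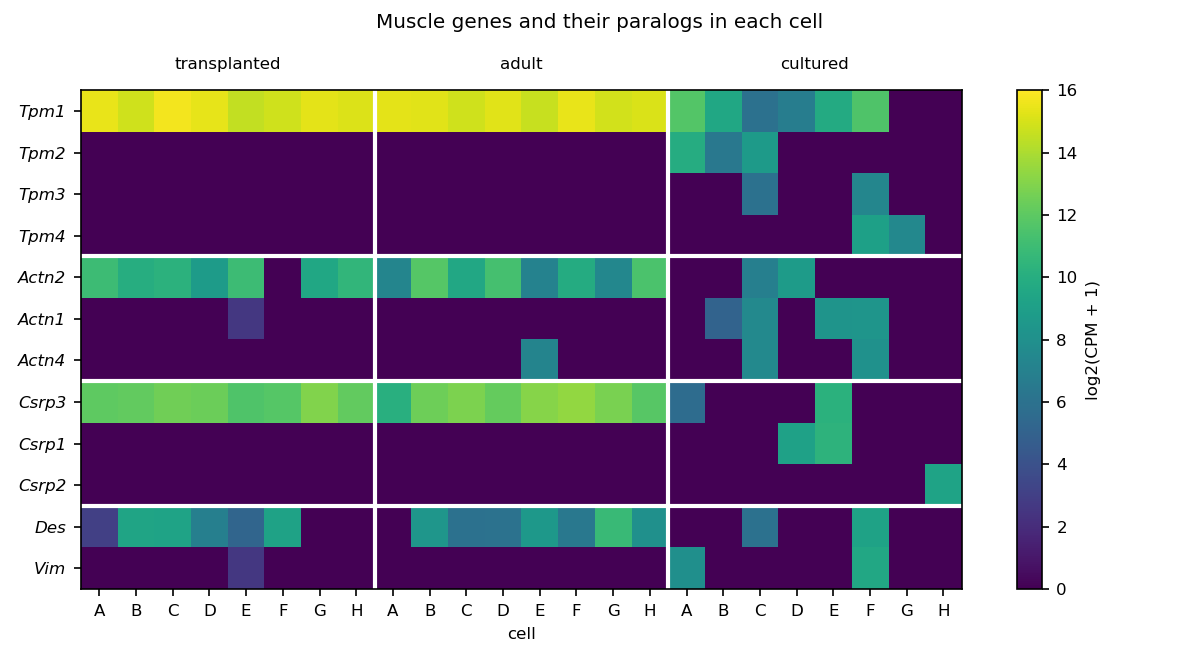
Colours give log2(CPM + 1) of Tpm1, Actn2, Csrp3 and Des and of their paralogs in each of the 24 cells, by group, with dark cells at 0 counts. In transplanted and adult cells only the first gene of each family has counts apart from Actn1 and Vim in transplanted cell E and Actn4 in adult cell E, while cultured cells hold both kinds in scattered cells.

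All 8 measured paralogs, 2 tropomyosins and 6 others, were at least 2-fold lower in transplanted than in cultured cells, where 64.0% of all measured genes were as well. The other 6 were Actn1, Csrp1, Csrp2, Mybphl, Vim and Adprh. Each of the 8 had 0 or 1 counts in transplanted cells, so its cultured counts alone made it measured. A gene that enters in this way is always called lower, so the 8 of 8 could not have come out otherwise. Of 17 further Z-disc genes measured in transplanted against cultured cells, 7 were at least 2-fold higher and 9 lower, beside 22.5% and 64.0% of all measured genes, with a median log2 ratio of -1.06. In adult against cultured cells it was 10 higher and 5 lower of 19, beside 23.0% and 62.1% of all, with a median of 1.04. Cryab, the small heat shock protein that guards desmin, was 25.4-fold higher in transplanted (17.6 to 38.3, 58.5 without cultured cell A and 38.5 without cultured cell C) and 27.1-fold higher in adult cells (18.7 to 40.8, 62.3 and 41.0 without them). Fhl2, a LIM protein of the heart, was 39.6-fold higher in transplanted (23.98 to 70.83) and 20.8-fold higher in adult cells (12.6 to 37.2), with all 15 cultured counts in cell A, and at least 179-fold and 94.0-fold higher without that cell. Smpx, a small muscle protein, was 3.496-fold higher (2.58 to 4.84) in transplanted and 7.85-fold higher (5.83 to 10.8) in adult cells. Between transplanted and adult cells, 12 of 17 were lower by 2-fold or more and 2 higher, beside 44.3% and 34.8% of all measured genes, with a median of -1.65. Pdlim7, a PDZ-LIM relative of Ldb3, had 599 counts in 4 transplanted and none in adult or cultured cells.

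Among thin filament end and M-band genes, 6 of 9 measured were at least 2-fold higher and 2 lower in transplanted than in cultured cells, beside 22.5% and 64.0% of all measured genes, with a median of 2.31. In adult against cultured cells it was 5 higher and 2 lower of 9, beside 23.0% and 62.1% of all, with a median of 3.01. Lmod2 and Lmod3, the leiomodins that lengthen thin filaments, had no cultured count. Lmod3 was at least 55.2-fold higher in transplanted cells (at least 21.4 without transplanted cell H) and at least 22.0-fold higher in adult cells (at least 8.18 without adult cell D). Lmod2 was at least 16.5-fold higher in transplanted cells (at least 10.7 without transplanted cell B) and at least 42.5-fold higher in adult cells (at least 18.8 without adult cell F). Transplanted against adult cells had 4 of 10 of these genes higher and 3 lower, near the 34.8% and 44.3% of all measured genes, with a median of 0.54. Of the desmin partners, Dmd (dystrophin) was at least 8.86-fold higher in transplanted than in cultured cells (at least 5.33 without transplanted cell A and at least 4.68 without D, the 2 cells that held all 168 counts). Adult cells had 20 counts of Dmd, 15.7 CPM, close to the cultured floor of 14.6 CPM that 3 counts give. Transplanted cells stood 8.20-fold (5.14 to 13.8) above adult cells, and 4.33-fold to 13.5-fold without transplanted cell D or adult cell A. Plec and the keratins Krt8 and Krt19 had 10 counts or fewer in each group, and Synm had 2 counts in all.

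Where these genes start, the mouse genome holds different short motifs. The 250 bases before the RefSeq start are shown for the 3 members with the highest level per kilobase in transplanted cells, as genes that stood high together in transplanted and adult cells. The window of Ldb3 was added after its values were seen, as the member that went the other way. Coordinates are those of GRCm38.p6, 5′ to 3′ on the strand of the gene, which is the minus strand in all 4 cases. Capitals mark every match, on either strand, to the E-box CANNTG, the MCAT element CATTCC, the GATA motif GATAA, the TATA box TATAAA, the MEF2 box or the CArG box, and matches to different motifs do not overlap in these windows. Tpm1 lies at chr9:67049214-67049463, Csrp3 at chr7:48848052-48848301, Myoz2 at chr3:123034988-123035237 and Ldb3 at chr14:34588682-34588931.
Tpm1: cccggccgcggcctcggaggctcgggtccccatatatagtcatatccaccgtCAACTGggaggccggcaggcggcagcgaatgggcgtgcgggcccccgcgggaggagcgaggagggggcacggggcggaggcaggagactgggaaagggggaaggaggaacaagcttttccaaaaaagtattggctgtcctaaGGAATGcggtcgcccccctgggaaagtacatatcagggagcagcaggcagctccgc
Csrp3: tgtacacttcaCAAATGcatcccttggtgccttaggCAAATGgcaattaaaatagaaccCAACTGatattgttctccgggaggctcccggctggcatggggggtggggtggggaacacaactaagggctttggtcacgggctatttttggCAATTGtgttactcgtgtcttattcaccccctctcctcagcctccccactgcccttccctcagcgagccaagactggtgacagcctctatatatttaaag
Myoz2: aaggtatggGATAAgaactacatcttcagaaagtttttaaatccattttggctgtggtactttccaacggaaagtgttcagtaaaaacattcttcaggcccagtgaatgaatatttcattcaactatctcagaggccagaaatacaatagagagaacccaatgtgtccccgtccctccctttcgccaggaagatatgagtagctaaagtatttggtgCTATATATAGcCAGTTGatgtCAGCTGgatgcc
Ldb3: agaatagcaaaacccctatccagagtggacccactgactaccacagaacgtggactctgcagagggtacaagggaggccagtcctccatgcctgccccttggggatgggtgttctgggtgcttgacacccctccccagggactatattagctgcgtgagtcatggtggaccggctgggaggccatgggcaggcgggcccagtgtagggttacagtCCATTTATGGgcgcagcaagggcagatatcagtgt

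In the window of Tpm1 an MCAT element lay from -56 to -51, counted back from the start. Myoz2 had a MEF2 box from -33 to -24, and Ldb3 a CArG box from -35 to -26. Among the 8 members with a window, Mybpc3 had the other MEF2 box, no other member had an MCAT element or a CArG box, 7 had an E-box, 4 had the GATA motif and none had the TATA box. Over all 32851 windows of that length, 1.47% held a CArG box, 2.92% a MEF2 box, 12.6% an MCAT element, 66.2% an E-box, 22.6% the GATA motif and 12.4% the TATA box. A match is a run of letters and does not show that a factor binds there. In mm10 the gene bodies of the 9 members lie on chromosomes 1 (Des), 2 (Mybpc3), 3 (Myoz2), 7 (Csrp3), 8 (Adprhl1), 9 (Tpm1), 11 (Tcap), 13 (Actn2) and 14 (Ldb3), so each lies on a chromosome of its own. Tcap is the shortest, with 948 bp of exon in 2 exons from 98383811 to 98384953, and 1 member, Des, shares 220 exon bases with an antisense gene.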

How the data were processed

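RNA of single sorted or hand-picked cells was copied with a template-switching reverse transcriptase, amplified for 19 cycles and cut with Tn5, per the labels' protocols. The authors deposited raw read counts, whole numbers for each gene in each cell. Per the submitters' processing notes, tools were TopHat2 2.1.0, HTSeq and DESeq2 and the build was mm10. The annotation, strand setting and choice of genes were not given in the sources used here. Totals are of the 9595 listed genes, of which 692 had no count in any cell.

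Counts were summed over the 8 cells of each group and scaled to CPM. Ratios against 0 counts use a floor of 3 counts over the group (2.30 CPM in transplanted, 2.36 CPM in adult and 14.6 CPM in cultured cells) and are lower bounds. A gene was measured with at least 10 counts over both groups and called at a ratio of 2. Intervals came from scipy 1.17.1, and factors, with no model fitted, from edgeR 4.0.16 (TMM) and DESeq2 1.42.0. The ratio and call code was tested on simulated data. Exon lengths and positions came from GENCODE M21, where 97.4% of symbols matched. Promoter windows are RefSeq's, and 8 of 9 members matched.

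The 9 members and the related lists were chosen with earlier results of these data known. From the related lists, the named genes are the 3 with the highest summed CPM and every tropomyosin paralog, Vim, Actn1 and Actn4. Some items under these rules are not reported here. Others were chosen after their values were seen, as were the family shares. Alternatives were equal cell weights, other scalings, thinning, other thresholds and leaving out each cell.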

Additional observations from a re-analysis of the deposited data

Results flagged for a closer look

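In 7 of 26 sets of 8 cells, 1 cell stood far above the others by the gap to its nearest neighbour over the whole range (Dixon's ratio, at its 95% critical value). That value would flag about 1 in 20 sets by chance if the values were normally distributed, but these are skewed and hold many zeros, so the chance rate here is not known. Transplanted cell B had 555.6 CPM of Ldb3 (69 counts), with 229.6 CPM in the next cell. Adult cell A had 1931 CPM of Tcap (432 counts), with 744.5 CPM in the next. Adult cell G had 1798 CPM of Des (309 counts), with 364 CPM in the next. The other 4 lay in cultured cells. Cell D had 430.3 CPM of Actn2 (12 counts) and 2725 CPM of Ldb3 (76 counts), with 120.7 CPM and 543.1 CPM in the next cells. Cell E had 1180 CPM of Csrp3 (19 counts), with 50.48 CPM in the next. Cell F had 595.4 CPM of Des (11 counts), with 60.35 CPM in the next.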

How the results depend on the processing

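No paired analysis was possible because cell letters only name cells and no test was run. The median log2 ratio of the 9 genes for transplanted against cultured cells was 5.2028 with equal cell weights, 6.4822 with TMM, 5.7942 with median-of-ratios factors, 5.2239 with thinned cells, 5.3156 with a pseudocount of 10 CPM, and 5.2228 to 7.4719 without 1 cell. For adult against cultured cells it was 5.3001, 6.7336, 5.9554, 5.2690 and 5.3044 under the same settings, 5.6916 without Rn45s and Rpph1, and 5.3205 to 8.3479 without 1 cell. For transplanted against adult cells it was -0.2885 with equal weights, -0.2622 with thinned cells, and -0.2341 to 0.0429 without 1 cell. The number of genes at least 2-fold higher there was 0 to 1 without 1 cell, and 0 at 4-fold.

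The share of counts of the 9 genes in transplanted cells was 5.0871% with equal weights, 4.9665% without Rn45s and Rpph1, and 4.7419 to 5.1586% without 1 cell. In adult cells it was 4.9536%, 4.9195%, and 4.6765 to 4.9639%. In cultured cells it was 0.1430 to 0.1919% without 1 cell. The family share of Tpm1 in cultured cells was 62.0062% per exon length. Without 1 cell, that of Actn2 was 99.9057 to 100.0000% in transplanted, 98.0874 to 100.0000% in adult and 7.6923 to 51.8519% in cultured cells. That of Csrp3 was 3.1250 to 35.7143% in cultured cells, and that of Des was 99.3939 to 100.0000% in transplanted and 16.6667 to 46.1538% in cultured cells. The transplanted to adult ratio of Tcap was 0.2583 to 1.016 without 1 cell, and its direction turned only without adult cell A, which held 432 of 614 adult counts. The ranges of Tpm1, Actn2, Des and Adprhl1 without 1 cell crossed 1 as well, with Des at 0.3742 to 1.23. Cultured depth sets the bound for genes at 0, and counting intervals leave out the spread between animals and cultures.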
